A study of Mus musculus with 12 samples.

Results

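The data described here are the ribosome footprints of mouse embryonic stem cells that lack Gcn2, set against those of wild-type cells, after both were treated with dTAG-13 at 500 nM for 1 h. The comparison uses 4 of the 12 libraries of the series, chosen by genotype and treatment: 2 of treated Gcn2 knockout and 2 of treated wild type, all labelled as biological replicates (A and B). All cells were of the ES-E14TG2a line, a feeder-independent mouse embryonic stem cell line, and all carried eRF1-dTAG, in which the release factor eRF1 bears a tag that dTAG-13 links to the cell's ubiquitin ligase machinery for degradation. Cells were kept on gelatin with LIF and the inhibitors CHIR99021 (of GSK3) and PD0325901 (of MEK), the conditions that hold stem cells in the naive state. The remaining footprint libraries were untreated wild type and untreated Gcn2 knockout (2 each), and the last 4 libraries were poly(A) RNA of wild type, untreated and treated (2 each). The labels name no vehicle control, no untagged line, and 1 line identifier per genotype, so loss of Gcn2 and any other difference between these lines cannot be told apart. No RNA library of the knockout was among the samples. A difference in footprints between the genotypes may therefore lie in mRNA, in its translation or in ribosomes held on it. These cannot be told apart here.

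GCN2, encoded by Eif2ak4, is one of the kinases that phosphorylate the initiation factor eIF2; it is known as a sensor of uncharged tRNA and of stalled or collided ribosomes. Phosphorylated eIF2 lowers initiation on most mRNAs, while mRNAs with particular upstream open reading frames (uORFs), above all that of the transcription factor ATF4, are then translated more, and ATF4 switches on genes of amino acid supply and tRNA charging. eRF1, encoded by Etf1, reads stop codons and releases the finished protein, so that cells without it hold ribosomes at stop codons. A footprint count is the number of reads from ribosome-protected mRNA assigned to a gene, and it is a share of the library: a lower value for one gene is a lower share, not a lower absolute rate of synthesis. In bulk libraries fewer cells of a type and less RNA per cell cannot be told apart.

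Eif2ak4 (chr2:118388583-118475234 in RefSeq GRCm38.p6) was counted in every library, which checks the genotype labels. In treated cells it had 36 and 78 counts in the knockout replicates A and B (3.10 and 5.36 CPM, the counts scaled to library size) against 256 and 465 in wild type (33.97 and 33.2 CPM), with log2 difference −2.96, SE 0.22, adjusted p = 5.52e-05. The untreated knockout had 44 and 40 counts and the untreated wild type 555 and 527. All 4 knockout libraries were thus far below all 4 wild-type libraries, and none was at 0; where the knockout allele lies in the gene is not in the labels. Etf1 had 228 and 214 CPM in the treated knockout and 211 and 214 in treated wild type (log2 difference 0.06, SE 0.12, adjusted p = 0.837); the tag acts on the protein, so this count does not measure its depletion. The 4 treated libraries held 7874804 (wild type A) to 15159178 (knockout B) counts. The naive pluripotency markers summed to 13403 to 13760 CPM in the treated knockout and 12917 to 14198 in treated wild type, with Pou5f1 at 1048 to 1395 and Nanog at 1622 to 2142 over the 4 libraries and the differentiation markers Gata6, Sox17 and T each at 1.12 or less. Marker lists of other cell types were not all low: in the treated knockout and treated wild type, primitive endoderm markers summed to 1404 to 1576 and 1366 to 1615 CPM, fibroblast markers to 1534 to 1824 and 1613 to 1648, primed and early differentiation markers to 248 to 262 and 285 to 287, and trophoblast markers to 126 to 133 and 132 to 134. The 2-cell-like markers summed to 34.9 to 36.6 and 42.6 to 44.3. The part of these markers in the results was not tested. Of the tested members of the lists for primed, primitive endoderm, 2-cell-like, fibroblast and trophoblast cells, 0 were called between the treated genotypes (7 of 43 had an unadjusted p under 0.05, and DESeq2 called 0).

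After 1 h of dTAG-13 the ribosome footprints of the 2 genotypes differed at 464 genes. Atf4 and other uORF-controlled stress mRNAs, several ATF4 targets, and genes as unlike as the membrane-actin linker Msn, the purine enzyme Atic and the mitotic kinase Cdk1 were lower in the knockout; ferritin heavy chain, the co-repressor Tle5 and some ribosomal protein and respiratory chain mRNAs were higher. These are 3.78% of the 12267 genes tested and had an adjusted p under 0.05 by edgeR's quasi-likelihood test, which is what called means below. Of these, 228 (1.86%) were higher and 236 (1.92%) lower in the knockout, and 2557 had an unadjusted p under 0.05. Most differences were modest: the median size over the called genes was a log2 difference of 0.68, and 30 higher and 32 lower genes exceeded 2-fold. The median log2 difference of all tested genes was 0.00.

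The number of calls rested on both treated knockout libraries. Without knockout replicate A 12 genes were called, without knockout replicate B 6, without wild-type replicate A 251 and without wild-type replicate B 159; in a fit with 1 library left in a group, that library is taken to vary as the others do. All 464 genes kept their direction in each of these 4 fits. Eif2ak4, Atf4, Ibtk, Ifrd1, Msn and Herc4 stayed called in all 4, and Atic, Cdk1, H2bc27, Hadh, Kpna6 and Tle5 in 3, while 228 of the 464 genes were called in none of them. Herc4 (a ubiquitin ligase), Hadh and Kpna6 are named here for that count alone. For every other gene named below as called, the call was therefore lost when at least 2 of these libraries were left out one at a time. The log2 difference was steadier than the call and moved by over 1.5 times in 15 of the 464 genes. Each of these fits filtered and scaled its libraries anew. The median of a list in the full fit can therefore lie outside the range given below.

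Untreated cells of the 2 genotypes differed at 1 gene, Eif2ak4 (0.00815% of genes tested; 733 had an unadjusted p under 0.05), by the same edgeR test. DESeq2 called 31 genes there, the fit with the replicate letter as a block 14, the fit with no filter 113, and the fits without 1 untreated library between 1 and 10 (10 without knockout replicate B). The libraries of that contrast are not those of the treated one. Of the 228 genes higher in the treated knockout, 166 (72.8%) were also above 0 in untreated cells, with a median log2 difference there of 0.12; of the 235 lower ones other than Eif2ak4, 149 (63.4%) were below 0, with a median of −0.05. Over all genes tested 48.8% were above 0 in untreated cells. Across the 12267 genes the 2 differences had a Pearson r of 0.30 and a Spearman rho of 0.28, a description over genes, which are not independent replicates. The test of whether the genotype difference itself changed with treatment called 6 genes (0.0489%): Fth1 and Tle5 (0.0163% of genes) were higher, and Atf4, Ibtk, Msn and Atic (0.0326%) lower, in the treated knockout relative to the untreated contrast, and 1229 genes had an unadjusted p under 0.05. DESeq2 called 116 genes in this test, and without any 1 of the 4 knockout libraries edgeR called 0, so all 6 interaction calls given below rest on each of these libraries; without 1 wild-type library it called 3 to 32. For all other genes, being called in treated and not in untreated cells is not a tested difference.

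**Figure D1:**
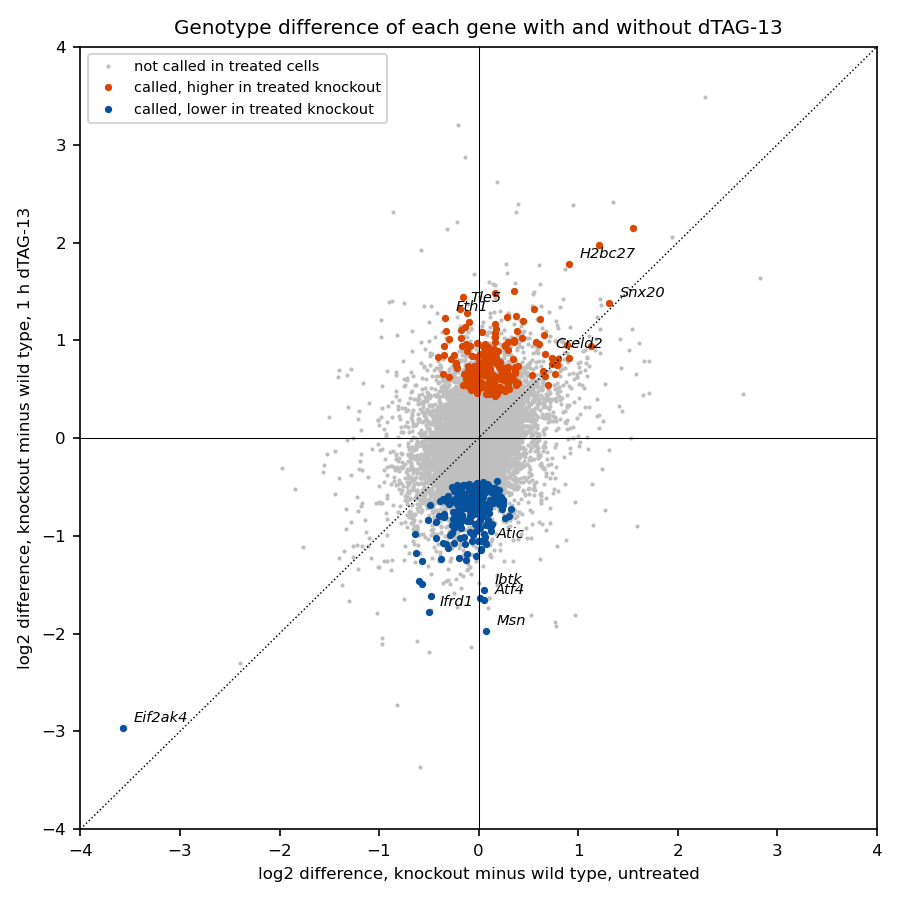
Log2 difference between knockout and wild type of each of the 12267 genes tested, in untreated cells (x axis) and after 1 h of dTAG-13 (y axis); grey points were not called in treated cells, orange points were called higher and blue points lower in the treated knockout, and 1 gene lies outside the axes. Most called genes lie along the vertical axis, with untreated differences near 0, while Eif2ak4 is low in both and Snx20 and Creld2 are high in both.

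The uORF-controlled stress mRNAs stood lowest of the lists described here. The lists were chosen with earlier results of these data known, so this rank and the shares below are descriptions. Atf4, Ibtk and Azin1 are also among the genes always named. Of 19 tested, 5 (26.3%, against 1.92% of all genes) were lower and 0 higher, and 14 of 19 lay below 0, with a median log2 difference of −0.55 against 0.00 for all genes and 0.04 for the same 19 in untreated cells. Atf4 (chr15:80255184-80257545; gene coordinates are those of RefSeq GRCm38.p6) had 92.2 and 103 CPM in the treated knockout and 361 and 255 in treated wild type. The treated knockout thus stayed close to the untreated levels, which were 79.4 and 78.3 in the knockout and 81.3 and 70.7 in wild type, and only treated wild type was high. The treated log2 difference was −1.66 (SE 0.16, adjusted p = 5.58e-04), and the difference changed between untreated and treated cells (interaction −1.71, SE 0.22, adjusted p = 0.0165, the treated minus the untreated log2 difference). Atf4 RNA in wild type was 291 and 263 CPM untreated and 306 and 306 treated.

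Ibtk (chr9:85687359-85750703), an inhibitor of Bruton's tyrosine kinase and a uORF-controlled mRNA, showed a different course. It had 14.3 and 16.6 CPM in the treated knockout and 44.3 and 46.6 in treated wild type (log2 difference −1.55, SE 0.15, adjusted p = 5.59e-04). Untreated cells had 57.7 and 50.5 in the knockout and 47.1 and 57.1 in wild type, so here treated wild type lay just below the untreated libraries and the treated knockout far below them (interaction −1.61, SE 0.21, adjusted p = 0.0165 for the change of the genotype difference with treatment). Ifrd1, a transcriptional co-regulator whose mRNA has an inhibitory uORF, had 16.7 and 20.8 CPM in the treated knockout against 78.6 and 51.8 in treated wild type (log2 difference −1.78, SE 0.19, adjusted p = 7.62e-04). Untreated levels were 24.3 and 24.02 in the knockout and 34.4 and 33.6 in wild type, so the treated knockout was below and treated wild type above both. Azin1, the antizyme inhibitor, had 17.5 and 20.2 CPM against 33.6 and 33.9 (log2 difference −0.84, SE 0.15, adjusted p = 0.0140; adjusted p = 0.180 without knockout replicate A). Ppp1r15b, a regulatory subunit of the phosphatase that dephosphorylates eIF2, was the last of the 5 and falls outside the naming rule (log2 difference −0.55, SE 0.13, adjusted p = 0.0343).

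The other members of the group varied widely. The inducible phosphatase subunit Ppp1r15a had 15.1 and 12.6 CPM in the treated knockout and 16.7 and 12.2 in treated wild type (log2 difference −0.05, SE 0.20, adjusted p = 0.916), and wild-type replicate A was the highest of the 4. Ddit3, which encodes the stress factor CHOP, had 3.44 and 4.12 CPM against 8.36 and 3.43 (log2 difference −0.56, SE 0.44, adjusted p = 0.502), again with the high value in wild-type replicate A. Neither passed the test, and both values turned above 0 without that library (0.18 and 0.15). The group's median ranged from −0.87 without wild-type replicate B to −0.09 without wild-type replicate A.

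**Figure D2:**
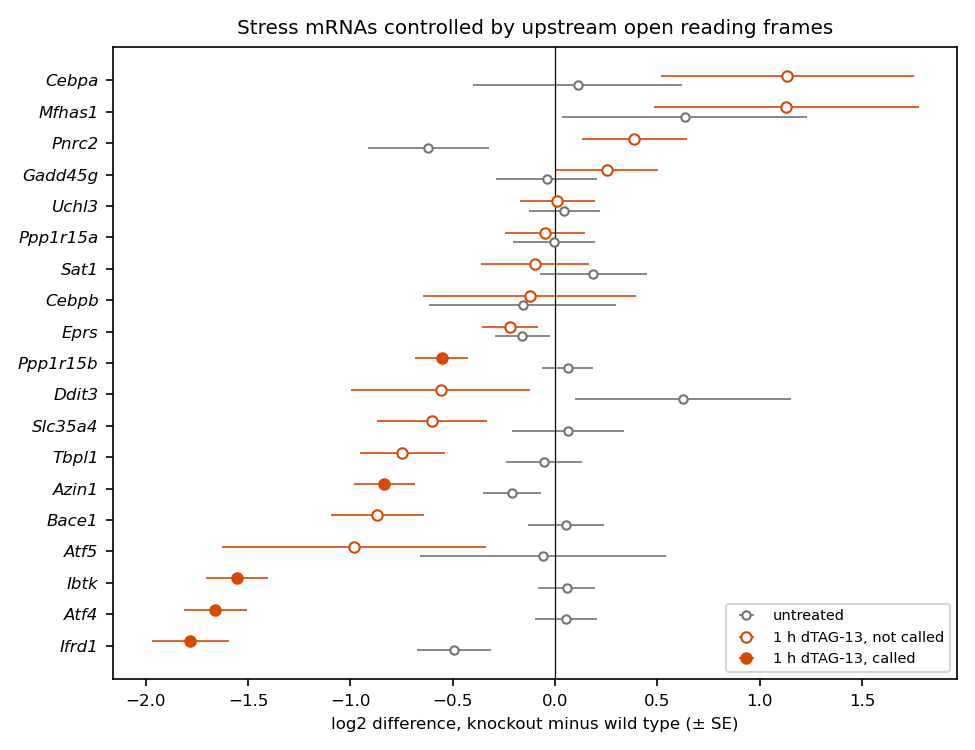
Log2 difference between knockout and wild type (± SE) of the 19 uORF-controlled stress mRNAs tested, in untreated cells (grey) and after 1 h of dTAG-13 (orange; filled where called). Ifrd1, Atf4, Ibtk, Azin1 and Ppp1r15b are called lower in the treated knockout; untreated values lie nearer 0 for these 5, and Cebpa, Mfhas1 and Pnrc2 lie above 0 without being called.

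Targets of ATF4 were less uniform than Atf4 itself. Of 42 tested, 6 (14.3%, against 1.92% of all genes) were lower in the treated knockout and 0 higher, 31 lay below 0, and the median log2 difference was −0.17 (−0.03 untreated). Aldh18a1, which makes the precursor of proline, had 47.5 and 50.2 CPM in the treated knockout and 125 and 79.2 in treated wild type (log2 difference −1.06, SE 0.19, adjusted p = 0.0154; from −1.40 without wild-type replicate B to −0.70 without wild-type replicate A). Xpot, the tRNA export receptor, had 71.7 and 64.9 against 121 and 119 (log2 difference −0.81, SE 0.11, adjusted p = 0.00495; adjusted p = 0.154 without knockout replicate B). Bcat1, a branched-chain amino acid transaminase, differed by −0.71 (adjusted p = 0.0179), and Nars, the asparaginyl-tRNA synthetase, by −0.52 (adjusted p = 0.0495). Chac1, a glutathione-degrading enzyme, and Slc1a5, a glutamine transporter, were the other 2 called and fall outside the naming rule (log2 differences of −1.25, adjusted p = 0.0445, and −0.58, adjusted p = 0.0289). Asns, asparagine synthetase and a textbook target, had 1852 and 1741 CPM in the knockout against 2237 and 1748 in wild type (log2 difference −0.15, SE 0.16, adjusted p = 0.640) and was not called. Slc7a11, the cystine transporter, lay just outside the threshold and is named after its value was seen, with 1.12 and 1.44 CPM against 3.58 and 2.93 (log2 difference −1.30, SE 0.34, adjusted p = 0.0502). The list's median ranged from −0.50 without wild-type replicate B to 0.04 without wild-type replicate A, so its sign rested on wild-type replicate A.

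ATF4 binds composite C/EBP-ATF response elements, and the letters TGATGNAA were searched on both strands in RefSeq promoter windows (GRCm38.p6, 250 bases before to 50 after each gene's start), the only motif searched. Of the 35 ATF4 targets with a window, 11 (31.4%) held a match, against 2.52% of the 9704 tested genes with one and 4.51% of all 27025 symbols with a window. The stretches below are shown because they belong to 1 called target and to 2 targets whose differences did not pass the test, on the gene's strand, with the match in capitals. A match is a description of letters, not a measured binding site. The Chac1 stretch is chr2:119351039-119351066 (plus strand), with the match on the opposite strand; the Slc7a11 stretch is chr3:50443662-50443689 (minus strand) and that of Asns chr6:7693215-7693242 (minus strand). Slc7a11 held a second match, on the opposite strand, in the overlapping stretch chr3:50443643-50443670, which is not printed.
Chac1: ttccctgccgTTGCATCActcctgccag
Slc7a11: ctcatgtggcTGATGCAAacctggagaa
Asns: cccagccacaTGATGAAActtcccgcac
Genes with a match did not share a response: the 11 targets included Chac1 with its log2 difference of −1.25, Slc7a11 with −1.30, Asns with −0.15 and Herpud1 with 0.18. Among all called genes with a window, 3 of 182 lower ones (1.65%) and 4 of 178 higher ones (2.25%) held a match, both near the share of tested genes.

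Other parts of amino acid supply and of eIF2 control were lower at a few members. Lower calls were 10.3% of the amino acid, 8.70% of the synthetase and 8.70% of the eIF2 list below, against 1.92% of all genes. Of 39 amino acid synthesis and transport genes tested, 4 were lower and 0 higher (median log2 difference −0.18, 31 below 0, ranging from −0.23 without knockout replicate A to −0.04 without wild-type replicate A); the call outside the ATF4 list was Shmt1, a serine hydroxymethyltransferase (log2 difference −0.52, adjusted p = 0.0250). Of 23 cytosolic aminoacyl-tRNA synthetases, 2 were lower, Nars and the tyrosyl-tRNA synthetase Yars, and 0 higher (median −0.11, ranging from −0.20 without wild-type replicate B to −0.06 without wild-type replicate A). Yars had 138 and 126 CPM in the treated knockout against 263 and 197 in treated wild type (log2 difference −0.80, SE 0.15, adjusted p = 0.0154; adjusted p = 0.240 without knockout replicate B). Among 23 genes of eIF2, its kinases, its exchange factor eIF2B and GCN2 regulators, the targeted gene Eif2ak4 is not counted as a member; 2 were lower, Eif2b2 and Eif5, and 0 higher (median −0.14, ranging from −0.22 without wild-type replicate A to −0.12 without wild-type replicate B). Eif2b2, a subunit of eIF2B, differed by −0.72 (adjusted p = 0.0140), and Eif5, the GTPase-activating protein of eIF2, by −0.64 (adjusted p = 0.0223).

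The largest differences among lower genes were not in stress genes alone. Msn (chrX:96096045-96168553) encodes moesin, which links actin to the plasma membrane. It had 22.1 and 20.5 CPM in the treated knockout and 85.6 and 81.4 in treated wild type (log2 difference −1.97, SE 0.19, adjusted p = 5.59e-04, 3.92-fold lower). Untreated cells had 81.5 and 72.8 CPM in the knockout and 56.6 and 90.3 in wild type, so the treated knockout stood alone (interaction −2.04, SE 0.26, adjusted p = 0.0165 for the change with treatment). Msn RNA in wild type was 203 and 214 CPM untreated and 213 and 205 treated. Of 33 actin linkers and focal adhesion genes tested, 3 (9.09%, against 1.92% of all genes) were lower and 0 higher. Their median log2 difference was −0.06, ranging from −0.14 without wild-type replicate A to 0.01 without wild-type replicate B. The calls included Msn and the integrin adaptor talin, Tln1 (log2 difference −0.69, adjusted p = 0.0436).

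Atic (chr1:71557156-71579403), which carries out the last steps of purine synthesis, had 139 and 126 CPM in the treated knockout and 281 and 281 in treated wild type (log2 difference −1.08, SE 0.12, adjusted p = 9.90e-04; adjusted p = 0.0587 without knockout replicate B). Its untreated levels were 234 and 265 in the knockout and 222 and 251 in wild type, again leaving the treated knockout as the low group (interaction −1.16, SE 0.17, adjusted p = 0.0222). Of 18 purine synthesis genes, Atic and Shmt1 were lower (11.1%, against 1.92% of all genes), 0 were higher and the median was −0.16. Cdk1, the kinase that drives mitosis, had 177 and 151 CPM against 333 and 347 (log2 difference −1.05, SE 0.12, adjusted p = 0.00142; adjusted p = 0.0605 without knockout replicate B), and was the only called gene of 34 cyclins and cell cycle kinases, whose median was 0.13 and went from 0.05 without wild-type replicate A to 0.13 without knockout replicate B. Ddb1, an adaptor of CUL4 ubiquitin ligases, had 549 and 515 CPM against 1073 and 1273 (log2 difference −1.14, SE 0.20, adjusted p = 0.0140). The rule that named Ddb1 required no overlap between the treated genotypes. Its untreated values were 822 and 754 CPM in the knockout and 586 and 969 in wild type. The 1 lower call among the 34 cyclins and cell cycle kinases was 2.94% of them, near the 1.92% of all genes.

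The remaining lower genes named by size had fewer footprints or wider replicates. Mapk6, an atypical MAP kinase, had 6.28 and 8.18 CPM against 18.2 and 16.2 (log2 difference −1.23, SE 0.19, adjusted p = 0.00612). Id3, an inhibitor of helix-loop-helix transcription factors, had 21.3 and 19.5 against 55.5 and 38.1 (log2 difference −1.19, SE 0.25, adjusted p = 0.0301). Trpa1, a cation channel, was at 7.57 and 7.01 against 14.3 and 26.01 (log2 difference −1.50, SE 0.34, adjusted p = 0.0354). These 3 differed in untreated cells by −0.38, −0.11 and −0.57 on the log2 scale, none called. Gpbp1, a transcription factor that binds GC-rich promoters, differed by −1.21 (adjusted p = 0.0103), and the zinc finger genes Zfp869 and Zfp740 by −1.18 (adjusted p = 0.0179) and −1.13 (adjusted p = 0.0193).

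**Figure D3:**
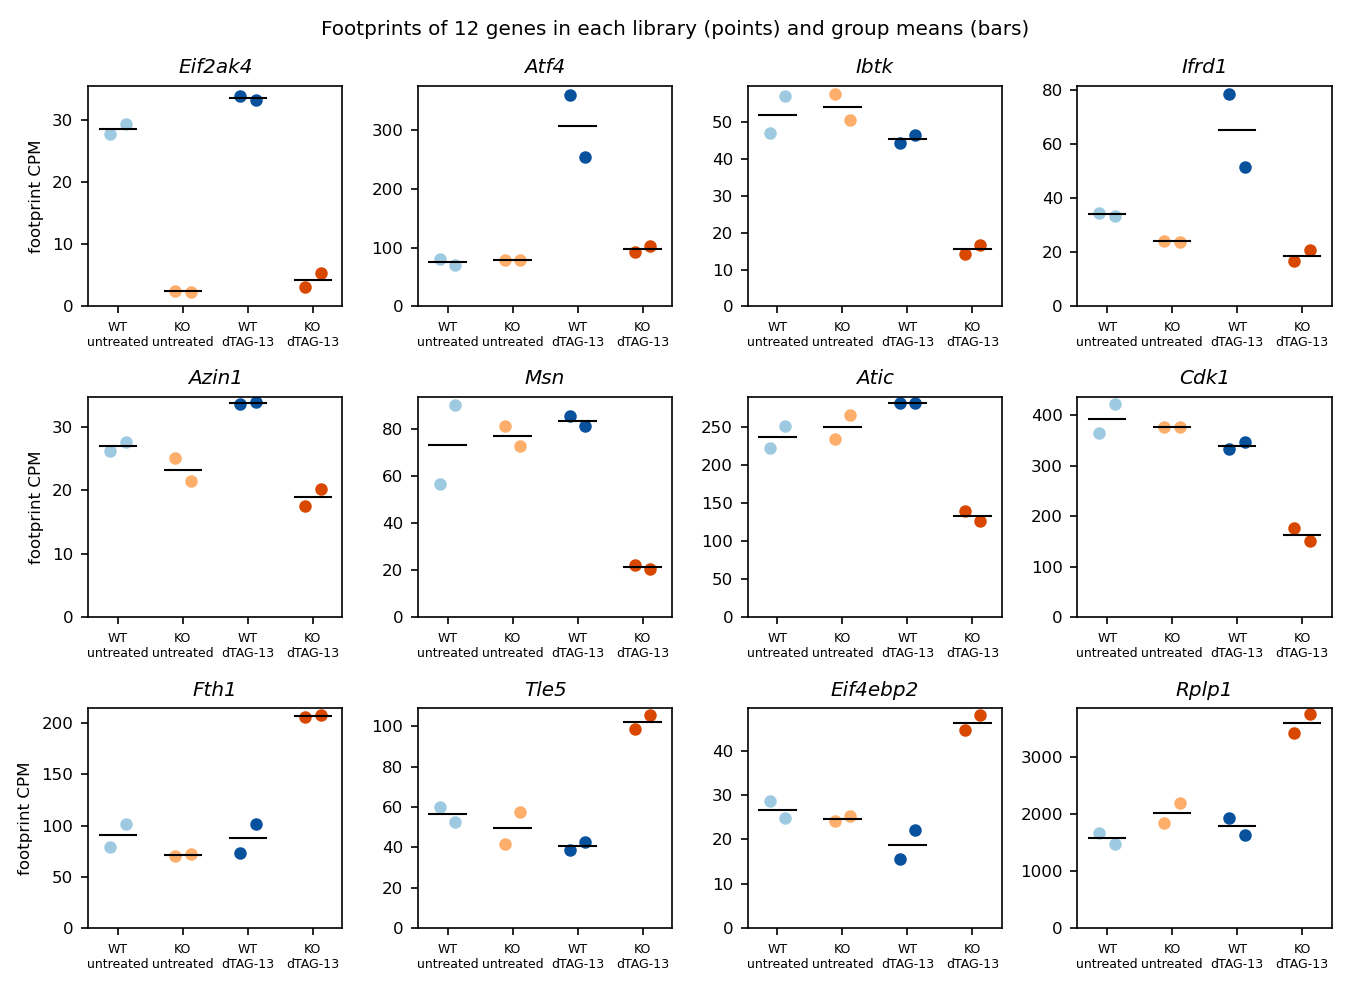
Footprint CPM of 12 genes in each of the 8 footprint libraries, by genotype (WT, wild type; KO, Gcn2 knockout) and treatment; each point is 1 library and each bar the mean of the 2. The treated knockout is the low group for Ibtk, Msn, Atic and Cdk1 and the high group for Fth1, Tle5, Eif4ebp2 and Rplp1, while for Atf4 treated wild type is the high group.

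Fth1 (chr19:9980600-9985111), the heavy chain of the iron store ferritin, had the most footprints in the treated knockout of the 12 higher genes named by size. It had 206 and 208 CPM in the treated knockout and 73.8 and 102 in treated wild type (log2 difference 1.23, SE 0.16, adjusted p = 0.00314, 2.35-fold; adjusted p = 0.0603 without knockout replicate B). Untreated cells had 70.5 and 72.3 in the knockout and 79.1 and 102 in wild type, so the treated knockout was above every other library (interaction 1.57, SE 0.22, adjusted p = 0.0222). Fth1 has processed copies in the genome, and how shared reads were counted is not given, so its level is uncertain. Ncoa4, the receptor that delivers ferritin to autophagy, was lower (log2 difference −0.67, adjusted p = 0.0154). Fth1 and Ncoa4 were the calls among 17 ferritin and iron control genes (5.88% higher and 5.88% lower, against 1.86% and 1.92% of all genes). The list's median log2 difference was −0.05, ranging from −0.10 without knockout replicate B to 0.03 without wild-type replicate B.

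Tle5 (chr10:81559444-81566371), a short Groucho-family co-repressor, had 98.7 and 106 CPM in the treated knockout against 38.8 and 42.7 in treated wild type (log2 difference 1.32, SE 0.16, adjusted p = 0.00163; interaction 1.51, SE 0.22, adjusted p = 0.0222 for the change with treatment; adjusted p = 0.0587 without knockout replicate B). Its untreated levels were 41.6 and 57.3 in the knockout and 60.2 and 52.4 in wild type, all below the treated knockout. Eif4ebp2, a repressor of cap-dependent initiation that binds eIF4E, had 44.6 and 47.96 CPM against 15.7 and 22.01 (log2 difference 1.28, SE 0.17, adjusted p = 0.00331; adjusted p = 0.0908 without knockout replicate B). The untreated range of Eif4ebp2, 24.1 and 25.2 in the knockout and 28.7 and 24.7 in wild type, again lay between. Ccng1, cyclin G1 and a p53 target, had 149 and 138 against 60.8 and 54.3 (log2 difference 1.32, SE 0.17, adjusted p = 0.00320). Its untreated levels were 169 and 132 CPM in the knockout and 119 and 85.4 in wild type (log2 difference 0.56, not called). For Ccng1 treated wild type was thus the low group. Cdx1, a homeobox transcription factor of early development, had 19.8 and 22.5 against 9.29 and 6.65 (log2 difference 1.44, SE 0.25, adjusted p = 0.0106).

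Several of the largest higher genes had a difference of like sign before treatment. Snx20, a sorting nexin, had a log2 difference of 1.31 in untreated and 1.38 in treated cells, with 17.5 and 17.04 CPM in the treated knockout and 8.49 and 5.22 in treated wild type. The histone gene H2bc27 differed by 0.91 and 1.78, with 20.9 and 24.3 CPM against 8.23 and 5.36 in treated cells. Neither untreated value was called. Bola3, of mitochondrial iron-sulfur cluster assembly, differed by 1.24 (adjusted p = 0.00850), Arap2, a GTPase-activating protein, by 1.22 (adjusted p = 0.0174), and Lefty1, a secreted inhibitor of Nodal, by 1.19 (adjusted p = 0.0480). The last 2 of the 12 were Ap3s1, a subunit of the AP-3 vesicle coat (log2 difference 1.14, adjusted p = 0.00612), and the ubiquitin ligase gene Rnf166 (log2 difference 1.08, adjusted p = 0.0123). Before treatment Bola3, Arap2 and Lefty1 differed by 0.28, 0.62 and 0.45, Rnf166 by 0.03 and Ap3s1 by −0.14, none called. The log2 difference of Lefty1 went from 0.73 without wild-type replicate B to 1.64 without wild-type replicate A.

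Ribosomal protein mRNAs, whose 5′ TOP tract ties their translation to mTOR, lay mostly above 0 in the treated and mostly below 0 in the untreated contrast. Of 46 large subunit genes tested, 3 (6.52%, against 1.86% of all genes) were higher and 0 lower. In this list 43 lay above 0, with a median log2 difference of 0.32 treated and −0.19 untreated. Of 31 small subunit genes, 3 (9.68%, against 1.86% of all genes) were higher and 0 lower, and 29 lay above 0 (median 0.35 treated, −0.23 untreated). The change of sign between treated and untreated cells was not tested for these lists. Of the called members, Rplp1 and Rps27l were above 0 in untreated cells too (log2 differences 0.36 and 0.27). Rpl12, Rplp0, Rps12 and Rps20 were at −0.01, −0.01, −0.18 and −0.41 there, and none of these untreated values was called. Rplp1, a protein of the ribosomal stalk, had 3434 and 3751 CPM in the treated knockout and 1941 and 1633 in treated wild type (log2 difference 1.01, SE 0.14, adjusted p = 0.00495). Rpl12, at the base of the stalk, had 1929 and 2007 against 806 and 1196 (log2 difference 0.97, SE 0.17, adjusted p = 0.0103), and the stalk scaffold Rplp0 differed by 0.61 (adjusted p = 0.0303). Rplp2, the other stalk protein, is named for comparison after its value was seen and was not called (log2 difference 0.06, adjusted p = 0.843). Rps12 had 2821 and 2708 CPM against 1452 and 1260.4 (log2 difference 1.03, SE 0.15, adjusted p = 0.00581), Rps20 differed by 0.83 (adjusted p = 0.0139) and Rps27l by 0.58 (adjusted p = 0.0355). Ribosomal protein genes have many near-identical pseudogenes, and the assignment of shared reads is not given. The medians ranged from 0.12 without wild-type replicate B to 0.46 without wild-type replicate A, and for the small subunit from 0.17 without wild-type replicate B to 0.50 without wild-type replicate A.

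Other translation genes had medians below 0. Higher calls were 6.67% of the other TOP and 5.41% of the initiation factor list, against 1.86% of all genes. Lower calls were 8% of the ribosome assembly and 2.70% of the initiation factor list, against 1.92% of all genes. Among 30 other mRNAs with a TOP tract, 2 were higher, Tpt1 (log2 difference 0.65, adjusted p = 0.0295) and the poly(A)-binding protein Pabpc1 (log2 difference 0.57, adjusted p = 0.0434), and the median was −0.05. Of 37 initiation factors, Eif4ebp2 and Pabpc1 were higher and Eif5 lower (median −0.08), and of 18 elongation factors edgeR called 0 and DESeq2 1 (median −0.13; 2 with an unadjusted p under 0.05). Genes of ribosome assembly and RNA polymerase I had 4 of 50 lower and 0 higher (median −0.10). They were the pseudouridine synthase Dkc1 (log2 difference −0.67, adjusted p = 0.0154), the polymerase subunit Polr1a (log2 difference −0.64, adjusted p = 0.0154), the nuclease Nob1 (log2 difference −0.62, adjusted p = 0.0201) and Wdr75, which falls outside the naming rule (log2 difference −0.51, adjusted p = 0.0241).

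Replication-dependent histone mRNAs, which end in a stem-loop in place of a poly(A) tail, lay above 0 in 45 of 57 genes, with a median log2 difference of 0.28 (−0.07 untreated) and 2 called, both higher (3.51%, against 1.86% of all genes). These were H2bc27 (log2 difference 1.78, SE 0.22, adjusted p = 0.00191) and H3c13 (log2 difference 1.01, SE 0.22, adjusted p = 0.0304). The median ranged from 0.05 without wild-type replicate B to 0.47 without wild-type replicate A; these genes share near-identical sequences, so single members are uncertain. Of 18 replacement histone genes and Slbp, H2az2 (log2 difference 0.99, adjusted p = 0.00693) and the linker histone H1f10 (log2 difference 0.69, adjusted p = 0.0241) were higher. Slbp, the protein that binds the stem-loop, was lower (log2 difference −0.56, adjusted p = 0.0301). Higher and lower calls were 11.1% and 5.56% of this list, against 1.86% and 1.92% of all genes. In untreated cells H2az2, H1f10 and Slbp differed by 0.58, 0.37 and −0.22, none called.

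Nuclear genes of the respiratory chain had 8 of 75 higher and 2 lower (10.7% and 2.67% of the list, against 1.86% and 1.92% of all genes), with a median log2 difference of 0.20 treated and 0.09 untreated. Ndufb9, of complex I, had 126 and 122 CPM in the treated knockout and 75.9 and 55.3 in treated wild type (log2 difference 0.93, SE 0.17, adjusted p = 0.0154; adjusted p = 0.212 without knockout replicate B). Atp5mg, of the ATP synthase, differed by 0.67 (adjusted p = 0.0140), and Sdhd, a membrane anchor of complex II, was lower (log2 difference −0.66, adjusted p = 0.0187). In untreated cells Atp5mg and Sdhd differed by 0.37 and 0.25, neither called. Of 80 mitochondrial ribosomal protein genes 5 (6.25%, against 1.86% of all genes) were higher and 0 lower (median 0.08). Among the 5 were Mrps21 (log2 difference 0.69, adjusted p = 0.0154), Mrps24 (log2 difference 0.63, adjusted p = 0.0295) and Mrpl34 (log2 difference 0.58, adjusted p = 0.0296). The respiratory chain median ranged from 0.10 without wild-type replicate B to 0.27 without wild-type replicate A, and that of the mitochondrial ribosome from 0.00 without wild-type replicate B to 0.19 without wild-type replicate A. The 13 mitochondrially encoded mRNAs were at 0 counts in all treated libraries.

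Factors of termination, ribosome rescue and nonsense-mediated decay, the processes closest to eRF1, gave 1 call by edgeR. This higher call was 3.45% of the rescue list, against 1.86% of all genes. Of 15 termination and recycling factors 0 were called by edgeR or DESeq2, and 0 had an unadjusted p under 0.05 (median log2 difference 0.05, ranging from −0.04 without wild-type replicate B to 0.01 without wild-type replicate A). Gspt1, the GTPase eRF3 that partners eRF1, had 217 and 193 CPM in the treated knockout against 254 and 238 in treated wild type (log2 difference −0.27, SE 0.14, adjusted p = 0.309), and Abce1, which splits ribosomes after termination, had 744 and 677 against 702 and 727 (log2 difference −0.01, SE 0.14, adjusted p = 0.984). Of 29 genes of ribosome rescue and quality control 1 was higher, Edf1, a sensor of collided ribosomes (log2 difference 0.78, adjusted p = 0.00612). Without knockout replicate B its log2 difference was 0.79. In this list 8 genes had an unadjusted p under 0.05, and DESeq2 called 3. The rescue factor Pelo differed by 0.06 (adjusted p = 0.847). Of 22 factors of nonsense-mediated decay 0 were called by either tool, and 5 had an unadjusted p under 0.05. Their median was 0.02, ranging from −0.13 without wild-type replicate B to 0.02 without wild-type replicate A. Among 6 tested transcripts sensitive to this decay, 1 was lower, Atf4 (16.7%, against 1.92% of all genes). In that list 3 had an unadjusted p under 0.05.

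Genes of polyamine control and of selenium use, some of them decoded by a frameshift or a recoded stop codon, included several calls. Among 15 genes of antizymes and polyamine metabolism 3 were higher and 1 lower (20% and 6.67%, against 1.86% and 1.92% of all genes). Oaz1, the antizyme made by a frameshift, had 389 and 398 CPM in the treated knockout against 274 and 255 in treated wild type (log2 difference 0.57, SE 0.14, adjusted p = 0.0373), while its inhibitor Azin1 was lower, as given above. Odc1, ornithine decarboxylase and the protein antizyme targets, had 212 and 224 against 93.96 and 147 (log2 difference 0.85, SE 0.17, adjusted p = 0.0236; adjusted p = 0.274 without knockout replicate B). Smox, spermine oxidase, was the last of the 4 and lies outside the naming rule (log2 difference 0.64, adjusted p = 0.0495). Of 21 selenoprotein genes, which read UGA as selenocysteine, Gpx4 was higher (4.76%, against 1.86% of all genes) and 0 were lower. Gpx4 differed by 0.62 on the log2 scale (adjusted p = 0.0396), from 0.40 without wild-type replicate B to 0.83 without wild-type replicate A. The list's median was 0.29 (0.06 untreated), ranging from 0.14 without knockout replicate B to 0.26 without wild-type replicate A.

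Genes of the endoplasmic reticulum stress response and of p53 had medians above 0 with and without dTAG-13, with 2 and 3 members called in treated cells and 0 in untreated cells. The treated calls, all higher, were 6.25% and 10.3% of the 2 lists, against 1.86% of all genes. Of 32 endoplasmic reticulum chaperones and unfolded protein response genes, 29 lay above 0 in treated and 30 in untreated cells, with median log2 differences of 0.36 and 0.40. The secreted factors Creld2 and Manf were called in treated cells. Creld2 had 108 and 118 CPM against 57.7 and 66.3 in treated cells (log2 difference 0.86, SE 0.14, adjusted p = 0.00845) and a log2 difference of 0.67, adjusted p = 0.218, in untreated cells, which did not pass the test. Manf differed by 0.82 (adjusted p = 0.0241) in treated cells and had 0.74, adjusted p = 0.319, in untreated cells, which did not pass either. Of 29 p53 pathway genes, 25 lay above 0 in both contrasts, with medians of 0.32 treated and 0.36 untreated; Ccng1, Bax (log2 difference 0.68, adjusted p = 0.0373; from 0.40 without wild-type replicate B to 0.93 without wild-type replicate A) and Ei24 (log2 difference 0.61, adjusted p = 0.0309) were higher. The p53 median ranged from 0.14 without wild-type replicate B to 0.39 without wild-type replicate A.

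The lists not yet described had 0 to 2 calls each, against 3.78% of all genes. Proteasome genes had 1 higher and 1 lower of 45, the assembly chaperone Psmg4 (log2 difference 0.77, adjusted p = 0.0354) and Psmd10 (log2 difference −0.96, adjusted p = 0.0103). Of 21 glycolytic enzymes the hexokinase Hk2 was lower (log2 difference −0.84, adjusted p = 0.00850), of 28 cholesterol genes the sterol sensor partner Insig1 was higher (log2 difference 0.66, adjusted p = 0.0154), and of 19 genes of the YAP pathway the transcription factor Tead2 was higher (log2 difference 0.74, adjusted p = 0.0249). Of 35 cytosolic chaperones, 27 immediate early genes and 25 naive pluripotency genes edgeR called 0 (4, 6 and 7 had an unadjusted p under 0.05) and DESeq2 called 2, 1 and 2. Their median log2 differences were −0.02, 0.01 and −0.06, near the 0.00 of all genes.

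**Figure D4:**
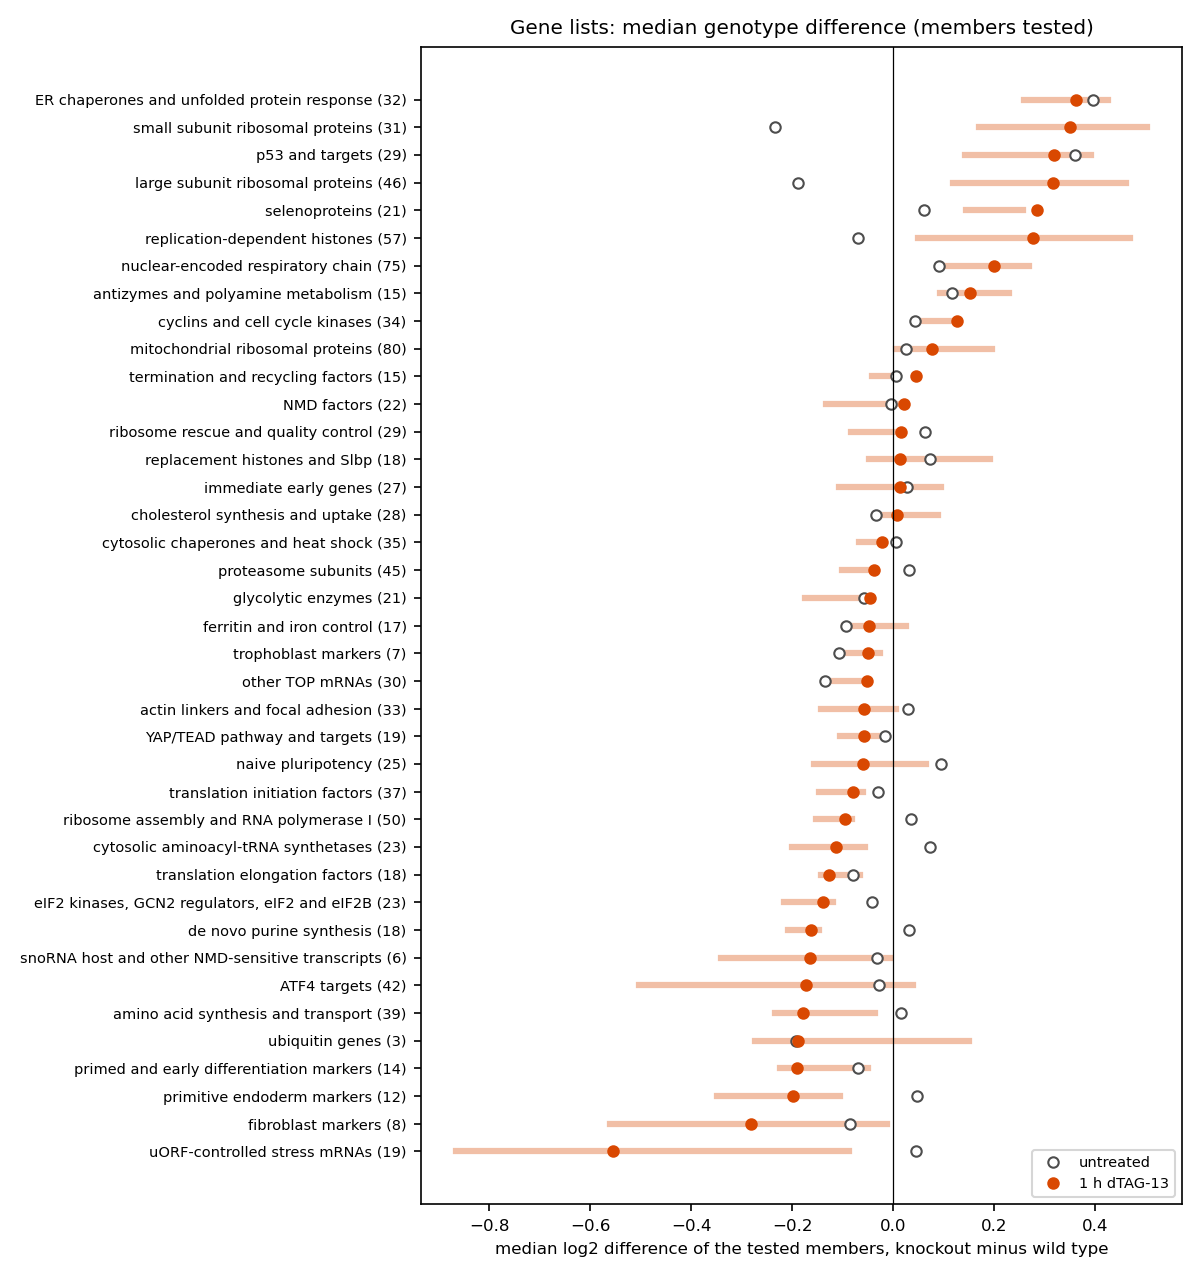
Median log2 difference between knockout and wild type over the tested members of each gene list (number tested in brackets), after 1 h of dTAG-13 (orange) and in untreated cells (open circles); bars span the treated medians when each treated library was left out in turn. The uORF-controlled mRNAs lie lowest in treated cells at −0.55, ribosomal proteins and replication-dependent histones are above 0 in treated and below 0 in untreated cells, and the endoplasmic reticulum and p53 lists are above 0 in both.

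Called genes also differed in the length of genome they span, introns included, a measure taken from RefSeq GRCm38.p6 and available for 98.7% of tested genes. Lower genes had a median span of 39.4 kb (234 genes) and higher genes 11.6 kb (221 genes), against 23.7 kb for all tested genes. Under 5 kb, 57 of 1392 genes (4.09%) were higher and 8 (0.575%) lower; at 100 kb and more, 6 of 1490 (0.403%) were higher and 44 (2.95%) lower. The median log2 difference fell from 0.12 in the shortest to −0.09 in the longest bin in treated cells and went from −0.02 to 0.00 in untreated cells. Under 5 kb the median ranged from 0.06 without wild-type replicate B to 0.19 without wild-type replicate A. Span is not mRNA or coding length, and its part in the differences of single genes was not tested.

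**Figure D5:**
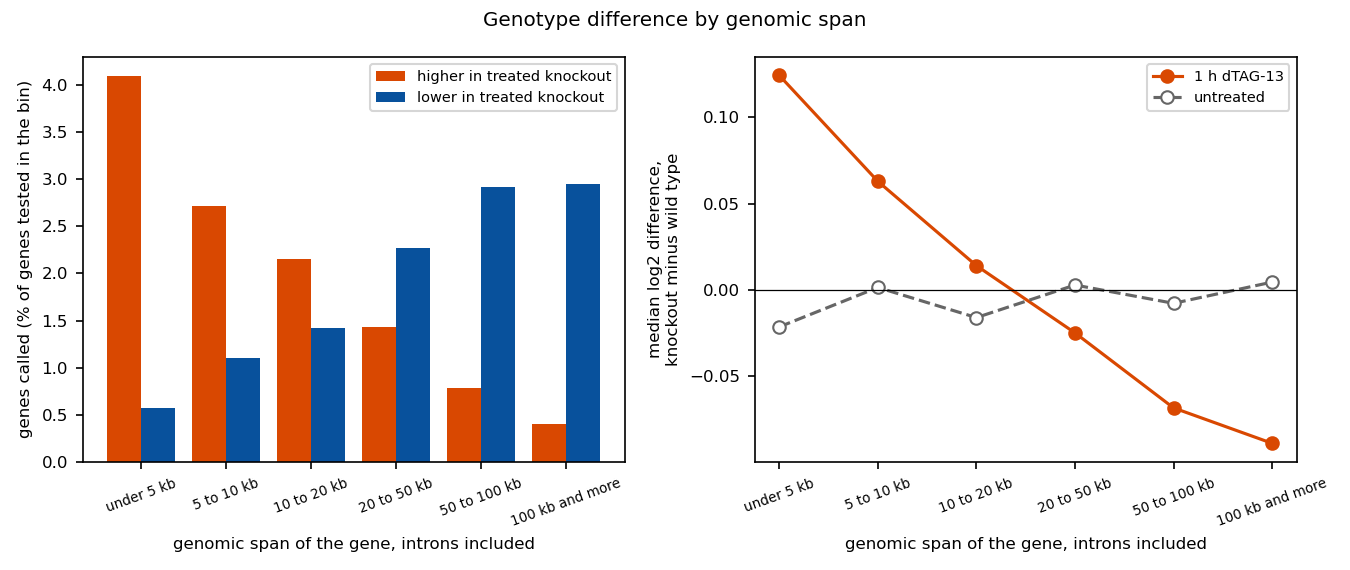
Left, share of tested genes called higher (orange) or lower (blue) in the treated knockout by genomic span of the gene; right, median log2 difference between knockout and wild type by span after 1 h of dTAG-13 (orange) and in untreated cells (open circles). Higher calls go from 4.09% to 0.403% and lower calls from 0.575% to 2.95% between the shortest and the longest bin.

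RNA was measured in wild type alone. Cdk1 RNA was 231 and 212 CPM in untreated and 206 and 210.3 in treated wild type. For Ibtk the values were 111 and 99.6 untreated and 105 and 102 treated, and for Ifrd1 126 and 111 and then 117 and 105. For Cdk1 both treated values lay below both untreated ones, for Ibtk and Ifrd1 the ranges overlapped, and no test was made here. Fth1 RNA was 442 and 418 CPM untreated and 414 and 445 treated, and Tle5 RNA 321 and 346 and then 347 and 336. These are values of wild type and say nothing of mRNA in the knockout.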

How the data were processed

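The authors deposited 2 tables of raw counts by gene symbol, without rows for unassigned reads. The footprint table lists 22034 symbols, of which 5553 were at 0 throughout. Per the labels' protocols, RNase I cut the unprotected mRNA, and protected fragments came from monosomes purified by sucrose gradient. Per the submitters' processing notes, HISAT2 2.1.0, cutadapt and CASAVA 1.4 were used, with mm10 as the genome build. No counter, annotation, strand setting or rule for reads shared by genes is stated in the sources used here, so near-identical copies and overlapping genes are uncertain. For the B replicate of the treated knockout the labels repeat A's column name; the title's letter decided the match.

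A single group-wise model of the 8 footprint libraries was fitted with edgeR 4.0.16 in R 4.3.3 (filterByExpr with a minimum count of 10, TMM factors, quasi-likelihood test with robust dispersions, 12267 genes, 4 residual degrees of freedom). Contrasts gave the treated and untreated genotype differences and the difference between them. Calls are two-sided at 0.05 after Benjamini-Hochberg adjustment over all genes. Positive log2 differences are higher in the knockout, and SEs were derived from the difference and its F statistic. CPM are edgeR's, on TMM-scaled libraries. The labels do not say whether replicates came from separate cultures, so p-values measure the spread between these libraries. Per degree of freedom, the chi-squared value between replicates was 2.81 in the treated knockout, 13.9 in treated wild type, 17.1 in the untreated knockout and 24.8 in untreated wild type; the fit shares 1 dispersion per gene over groups.

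The comparison, the gene lists and the genes always named were chosen with earlier results of these data known. Named genes were, per direction, the 12 largest called differences with no overlap between treated genotypes and a mean log2 CPM of 3 or more, predicted genes left out; up to 3 called members of each of 41 lists by adjusted p; genes called in the other contrasts; and 16 genes always given. DESeq2 1.42.0, RLE factors, no filter, fits of fewer libraries and the replicate letter as a block were tried. The procedure was tested on simulated data. Coding lengths were not used here; genomic span replaced them, a choice made after seeing the data. One gene that the naming rule selects is not reported here.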

Additional observations from a re-analysis of the deposited data

Results flagged for a closer look

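The genotype difference changed between untreated and treated cells, by the interaction test of edgeR's quasi-likelihood fit with Benjamini-Hochberg adjustment, at 6 of 12267 genes. Msn had the largest change, −2.04 (SE 0.26, adjusted p = 0.0165) on the log2 scale, and Atf4 changed by −1.71 (SE 0.22, adjusted p = 0.0165), Ibtk by −1.61 (SE 0.21, adjusted p = 0.0165) and Atic by −1.16 (SE 0.17, adjusted p = 0.0222), all toward lower values in the treated knockout. Fth1 changed by 1.57 (SE 0.22, adjusted p = 0.0222) and Tle5 by 1.51 (SE 0.22, adjusted p = 0.0222) toward higher ones. Each of the 6 had both treated knockout libraries on 1 side of both treated wild-type libraries. They were picked by a test on these libraries, so this is no added evidence. Without either treated knockout library, or without either untreated knockout library, 0 genes passed this test (658 to 1561 had an unadjusted p under 0.05). The 4 untreated libraries placed the 6 differences between −0.34 (Fth1) and 0.08 (Atic).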

How the results depend on the processing

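Limits first: 2 libraries per group and 4 residual degrees of freedom set the precision, and the shallowest treated library, wild-type replicate A, held 7874804 counts. Against 464 genes in the treated comparison, 783 were called by DESeq2 (343 higher, 440 lower), 1228 with no filter on low counts, 916 with the replicate block and 829 from the 4 treated libraries alone; RLE factors gave 457 (185 higher, 272 lower). Leaving out 1 library gave 6 to 729 calls, the fits without an untreated library being chosen after seeing the data (347 and 349 without a knockout, 723 and 729 without a wild-type one). All 464 kept their direction in each of these fits. Of 72 called genes named, RLE lost Lefty1 and Pabpc1, and DESeq2, no filter, the block and the treated libraries alone lost 0. The untreated comparison went from 1 call to 31 by DESeq2, 113 with no filter and 14 with the replicate block, and to between 1 and 10 without 1 library. The test of the change with treatment went from 6 calls to 116 by DESeq2, 192 with no filter and 39 with the block, and to between 0 and 32 without 1 library. In the labels the letters name replicates only. A minus B deviations of the treated knockout and treated wild type correlated at 0.02 across genes. Those of the treated and untreated knockout correlated at 0.10, and those of treated and untreated wild type at 0.49. The main fit does not model this likeness within wild type, and the block takes 1 letter effect for both genotypes. Values of 6 genes not called turned sign without 1 library: Abce1 −0.112 to 0.0220; Asns −0.354 to 0.0391; Ddit3 −1.17 to 0.146; Etf1 −0.0257 to 0.0645; Pelo −0.0178 to 0.110; and Ppp1r15a −0.313 to 0.176. The cause was not tested.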

Other observations

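Herc4, a ubiquitin ligase called with any 1 treated library left out, had 51.9 and 51.7 CPM in the treated knockout and 111 and 115 in treated wild type (log2 difference −1.13, SE 0.11, adjusted p = 5.59e-04); its untreated values were 88.3 and 90.1 in the knockout and 106 and 115 in wild type.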
